A study of Mus musculus with 82 samples.

Results

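10 genes that encode non-collagen proteins of the fibroblast extracellular matrix were followed through the ATAC-seq peak lists of a reprogramming experiment in mouse. They were chosen by name, as 10 of the 21883 protein-coding genes of the RefSeq table used: Postn, Sparc, Lox, Loxl1, Fn1, Fbn1, Thbs1, Tnc, Dcn and Lum. A peak was counted for a gene when it overlapped the gene, or when its centre lay within 100 kb of a gene end and no end of another protein-coding gene was nearer. Such peaks numbered 29 of 40452 in D209N day 7, 32 of 42439 in Flag day 7, 25 of 29189 in D209N day 3 and 30 of 36375 in Flag day 3.

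The 4 groups are cultures of OG2-MEFs, fibroblasts of mouse embryos, that had received the reprogramming factors OSKM (Oct4, Sox2, Klf4 and c-Myc) by retrovirus. In addition they overexpressed RNase H1(D209N), from retrovirus and called D209N below, or carried Flag, and were collected 7 or 3 days into reprogramming. RNase H1 cuts the RNA strand of RNA:DNA hybrids, and D209N names a substitution in its catalytic site. The groups labelled Flag are read as the control that the series design names. The protocol names iCD1 or mESC medium with vitamin C after infection, without tying a medium to a group. All 4 groups share OSKM, and no list of fibroblasts without OSKM was analysed here. The wells hold every infected cell, so a peak absent because fewer cells were open and a peak absent because each cell was less open cannot be told apart. Each group has 2 libraries in the labels but 1 deposited list, so the values below have no replicate error and no test was possible. Read depth is unknown, and an absent peak means only that none was listed. Coordinates are on GRCm38 (mm10), and for members without a known strand here the lower and upper ends are those by coordinate.

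The extracellular matrix of connective tissue is built from collagen fibrils, elastic microfibrils and adhesive glycoproteins, and fibroblasts make most of it. Cross-linking enzymes harden the fibrils, and leucine-rich proteoglycans on their surface govern their spacing. Matricellular proteins such as periostin and tenascin-C bind this scaffold and act on cell adhesion and growth factor activity. During reprogramming fibroblasts give up their mesenchymal programme, of which matrix synthesis is a part, and take on epithelial features before pluripotency.

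Accessible chromatin at the start of these genes was described for the members whose promoters the RefSeq table (GRCm38.p6) holds, which are Postn, Sparc, Fbn1 and Tnc. Each window runs from 250 bases before to 50 bases after an annotated start site, 5′ to 3′ on the gene's strand. The windows are shown because Fbn1 and Tnc had a peak on them in every list, Sparc had a start-site peak in the day 7 lists only, and Postn had a peak upstream of its window in a single list. Capitals mark matches on either strand to the motifs searched. These were TGANTCA, the site of AP-1 factors such as Fos and Jun; GGAATG, that of the TEAD factors that work with Yap; and the CArG box of the serum response factor. Further motifs were GGGCGG, bound by SP and KLF factors; TATAAA, the core of the TATA box; ATGCAAAT, the octamer bound by Oct4; and CACGTG, an E-box that Myc can bind. No motif overlapped another among the matches shown.
Fbn1, chr2:125506389-125506688, minus strand: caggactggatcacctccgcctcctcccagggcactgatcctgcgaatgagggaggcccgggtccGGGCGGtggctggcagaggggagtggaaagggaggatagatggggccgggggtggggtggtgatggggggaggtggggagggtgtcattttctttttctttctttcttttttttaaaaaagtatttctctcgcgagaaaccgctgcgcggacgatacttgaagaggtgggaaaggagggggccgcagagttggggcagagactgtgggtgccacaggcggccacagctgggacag
Tnc, chr4:64046966-64047265, minus strand: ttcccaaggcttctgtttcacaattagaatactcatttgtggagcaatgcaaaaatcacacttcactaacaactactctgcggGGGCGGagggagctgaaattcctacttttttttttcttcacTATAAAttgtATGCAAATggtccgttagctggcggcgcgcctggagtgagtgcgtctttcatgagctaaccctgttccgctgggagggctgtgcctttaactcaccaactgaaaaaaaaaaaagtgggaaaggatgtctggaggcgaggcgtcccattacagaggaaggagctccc
Sparc, chr11:55420031-55420330, minus strand: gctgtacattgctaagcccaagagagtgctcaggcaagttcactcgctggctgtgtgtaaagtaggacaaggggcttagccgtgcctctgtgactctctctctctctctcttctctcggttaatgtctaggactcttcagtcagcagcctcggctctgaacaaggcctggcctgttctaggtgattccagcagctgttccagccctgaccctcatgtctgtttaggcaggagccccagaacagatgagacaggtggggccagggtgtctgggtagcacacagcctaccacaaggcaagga
Postn, chr3:54359017-54359316, plus strand: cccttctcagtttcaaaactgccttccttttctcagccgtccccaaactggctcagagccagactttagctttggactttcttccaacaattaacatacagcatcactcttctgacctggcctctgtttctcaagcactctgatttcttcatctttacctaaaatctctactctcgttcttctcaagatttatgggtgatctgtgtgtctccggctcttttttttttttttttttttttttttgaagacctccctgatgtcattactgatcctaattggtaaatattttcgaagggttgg
Postn, second start site, chr3:54360857-54361156, plus strand: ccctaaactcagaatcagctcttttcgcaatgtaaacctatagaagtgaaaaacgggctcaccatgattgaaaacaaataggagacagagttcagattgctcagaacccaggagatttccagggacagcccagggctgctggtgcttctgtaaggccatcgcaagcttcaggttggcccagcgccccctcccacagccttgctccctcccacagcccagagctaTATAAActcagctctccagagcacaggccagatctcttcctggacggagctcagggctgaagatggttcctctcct

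The Fbn1 window lay wholly under a peak in each list, with 300 of 300 bases covered. It held 14 CpG, against a median of 7 over the 32851 promoter windows of the table, and 1 SP/KLF match, which 35.7% of all windows hold. For Tnc the window was covered over 300 bases in D209N day 7 and Flag day 7, 275 bases in D209N day 3 and 300 bases in Flag day 3. It held 10 CpG and 1 match each to SP/KLF, the TATA box (in 13.6% of all windows) and OCT (in 1.74%). Counted from the start site used, the TATA box match began at position -126 and the OCT match at -116. The table gives Tnc a second start site, whose overlapping window (chr4:64046887-64047186, not shown) held 16 CpG and the same 3 matches, with the TATA box at -205 and OCT at -195. Variants of TATAAA were not searched, and the letters tatataag occur nearer the start site in that second window. The window at the second start site had unequal cover. It was covered over 300 bases in D209N day 7 and Flag day 7, 196 bases in D209N day 3 and 287 bases in Flag day 3. The Sparc and Postn windows at the outer start site held 4 CpG each and none of the motifs. A TATA box match began at position -26 of the second Postn start site, in a window with 5 CpG, and no list had a peak on either Postn window. These letters are a description of the windows, and neither a match nor its absence shows whether a factor bound there.

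Sparc encodes a calcium- and collagen-binding matricellular glycoprotein. Its gene (chr11:55394159-55420080, minus strand, 25.9 kb) had 5 peaks in D209N day 7, 5 in Flag day 7, 3 in D209N day 3 and 2 in Flag day 3. The start-site peak was 305 bp wide in D209N day 7 and 366 bp in Flag day 7, and was not listed on day 3 in either arm. It ran from 55419681 to 55420049 over both lists, so all of it lay inside the gene and stopped short of the start site at 55420080. Of the promoter window only bases after the start site were covered, 19 in D209N day 7 and 16 in Flag day 7. A peak 3.96 kb upstream of the start site was likewise in the day 7 lists only, at 373 bp in D209N and 306 bp in Flag. The peak 1.95 kb inside the gene measured 431 bp in D209N day 7, 486 bp in Flag day 7 and 468 bp in D209N day 3, and it was absent from Flag day 3. Peaks beyond each side of the gene, 7.54 kb from its 3′ end and 8.34 kb upstream, were in every list. Sparc thus had its outer peaks throughout and a start-site peak listed at day 7 in both arms, while D209N day 3 already held the peak 1.95 kb inside. The start-site peak was narrower than the list median of 489 bp in D209N day 7 and 464 bp in Flag day 7. When each list was cut to its widest peaks at the length of the shortest list, it stayed in Flag day 7 only.

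Postn encodes periostin, a matricellular protein that takes part in collagen cross-linking. The gene (chr3:54359267-54391041, plus strand, 31.8 kb) had 0 peaks in D209N day 7, 2 in Flag day 7, 1 in D209N day 3 and 1 in Flag day 3. No peak in any list lay inside it. The Flag day 7 peaks stood 5.88 kb upstream (199 bp) and 0.551 kb upstream (chr3:54358582-54358849, 268 bp), while the day 3 peak was a different region 59.5 kb beyond the other end, at 257 bp in D209N and 281 bp in Flag. The day 3 region was absent from both day 7 lists, and the Flag day 7 regions were absent from the other 3 lists. Postn was the member whose only peak within 1 kb of a gene end rested on a single list.

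Thbs1 encodes thrombospondin-1, a matricellular protein that can activate latent TGF-beta. Its peak at the lower end of the gene (chr2:118111876-118127133, 15.3 kb) was in every list, and measured 1575 bp in D209N day 7, 1574 bp in Flag day 7, 1355 bp in D209N day 3 and 838 bp in Flag day 3. It was narrowest in Flag day 3. The day 7 peaks reached into the gene, while the day 3 peaks ended below it, at 118111788 in D209N and 118111210 in Flag. The 2 further regions, 67.0 kb and 9.64 kb below the gene, were listed in Flag day 7 only, at 233 and 246 bp. In all, Thbs1 had 1 peak in D209N day 7, 3 in Flag day 7, 1 in D209N day 3 and 1 in Flag day 3. The next coding gene above it, Fsip1, begins 3.13 kb away, so few peaks on that side could be counted for Thbs1.

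Tnc encodes tenascin-C, a glycoprotein of embryonic and healing tissue. The gene (chr4:63959785-64047015, minus strand, 87.2 kb) had 4 peaks in D209N day 7, 4 in Flag day 7, 3 in D209N day 3 and 5 in Flag day 3. These peaks fell into 7 regions, of which the start-site region alone was in all 4 lists. It measured 688 bp in D209N day 7, 787 bp in Flag day 7, 379 bp in D209N day 3 and 481 bp in Flag day 3, wider at day 7 in each arm. A region 63.7 kb downstream of the start site was in the day 3 lists only, at 550 bp in D209N and 340 bp in Flag. The region 44.5 kb downstream, at 401 bp in D209N day 7, 496 bp in Flag day 7 and 251 bp in Flag day 3, was absent from D209N day 3. Equal totals at day 7 hid different regions, since D209N had 2 that Flag lacked and Flag had 2 that D209N lacked.

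Fn1 encodes fibronectin, the glycoprotein that links integrins to the fibrillar matrix. Its peak at a gene end (gene chr1:71585473-71653280, 67.8 kb) was centred on the upper end and measured 1065 bp in D209N day 7, 1228 bp in Flag day 7, 963 bp in D209N day 3 and 995 bp in Flag day 3. Regions 20.4 kb and 38.8 kb above that end were in every list too, between 469 and 849 bp wide. The difference between days lay inside the gene: a region 7.21 kb from the upper end was in the day 3 lists only, at 451 bp in D209N and 455 bp in Flag. Another, 29.5 kb from the lower end, was in Flag day 3 only. Fn1 consequently had 3 peaks in D209N day 7, 3 in Flag day 7, 4 in D209N day 3 and 5 in Flag day 3.

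Fbn1 encodes fibrillin-1, the backbone of the microfibrils on which elastic fibres form. It is the longest of the 10 genes (chr2:125300594-125506485, minus strand, 206 kb) and had the most peaks, with 10 in D209N day 7, 8 in Flag day 7, 8 in D209N day 3 and 10 in Flag day 3. Of its 13 regions, 6 were in all 4 lists. The start-site peak measured 1623 bp in D209N day 7, 1478 bp in Flag day 7, 1113 bp in D209N day 3 and 1524 bp in Flag day 3, and was the widest member peak in D209N day 7 and Flag day 3, while that of Thbs1 was the widest in the other 2. A region 151 kb downstream of the start was in the day 7 lists only (316 bp in D209N, 468 bp in Flag), and one 117 kb downstream was in the day 3 lists only (574 bp in D209N, 567 bp in Flag). D209N day 3 lacked the regions 33.4 kb and 13.6 kb downstream that Flag day 3 held at 765 and 334 bp. At day 7 the first was listed in D209N at 604 bp and in Flag at 650 bp, and the second in D209N only, at 187 bp.

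Lox encodes lysyl oxidase, the copper enzyme that cross-links collagen and elastin, and Loxl1 an enzyme of the same family that acts on elastin. Lox (chromosome 18, 52516060 to 52529867) had 1 peak in D209N day 7, 2 in Flag day 7, 2 in D209N day 3 and 2 in Flag day 3. The peaks reaching within 1 kb of its upper end measured 1043 bp in D209N day 7, 618 bp in Flag day 7, 112 bp in D209N day 3 and 342 bp in Flag day 3. The 112 bp interval of D209N day 3 lay 0.316 kb outside the gene and overlapped no peak of the other lists. The day 7 D209N peak overlapped the Flag peaks of both days, which did not overlap each other. A region 40 kb above Lox was in the day 3 lists only (393 bp in D209N, 344 bp in Flag). The Lox end itself thus lay under a peak in the day 7 lists only, and that peak was wider in D209N than in Flag. At day 3 the D209N interval lay outside the gene and the Flag peak inside it, centred 1.11 kb from the end. Their widths therefore describe different sites. With a window of 0.5 kb around the end, D209N day 3 kept a peak and Flag day 3 did not.

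Loxl1 (chr9:58287723-58313212, 25.5 kb) had 4 peaks in D209N day 7, 4 in Flag day 7, 2 in D209N day 3 and 3 in Flag day 3. The interval on its upper end measured 529 bp in D209N day 7, 447 bp in Flag day 7 and 223 bp in D209N day 3, and was absent from Flag day 3. Next to it, 0.943 kb inside, a second interval measured 229 bp in D209N day 7, 335 bp in Flag day 7 and 20 bp in Flag day 3. Both day 7 lists give these 2 intervals 1 peak number, so they count as 1 peak when intervals of the same number are joined. The region 12.5 kb below the gene was in every list, at 851 bp in D209N day 7, 493 bp in Flag day 7, 634 bp in D209N day 3 and 240 bp in Flag day 3, wider in D209N on each day. D209N day 3 lacked the region 7.03 kb below, which the other 3 lists held at 188 to 339 bp.

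Dcn and Lum encode decorin and lumican, small leucine-rich proteoglycans that bind collagen fibrils, and the genes are neighbours 47.3 kb apart on chromosome 10. Dcn (chr10:97479500-97518163, 38.7 kb) had a single peak, on its lower end, in every list. Its width was 299 bp in D209N day 7, 411 bp in Flag day 7, 318 bp in D209N day 3 and 384 bp in Flag day 3, narrower in D209N on each day. Lum (chr10:97565501-97572703) had 0 peaks in all 4 lists. The nearest listed peak below it was that of Dcn, 85.7 to 85.9 kb away, and the nearest above stood 760 kb away in D209N day 7, 761 kb in Flag day 7, 52.4 kb in D209N day 3 and 52.5 kb in Flag day 3. Genes without a peak made up 25.9% of all coding genes in D209N day 7, 25.2% in Flag day 7, 34.1% in D209N day 3 and 29.7% in Flag day 3.

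**Figure D1:**
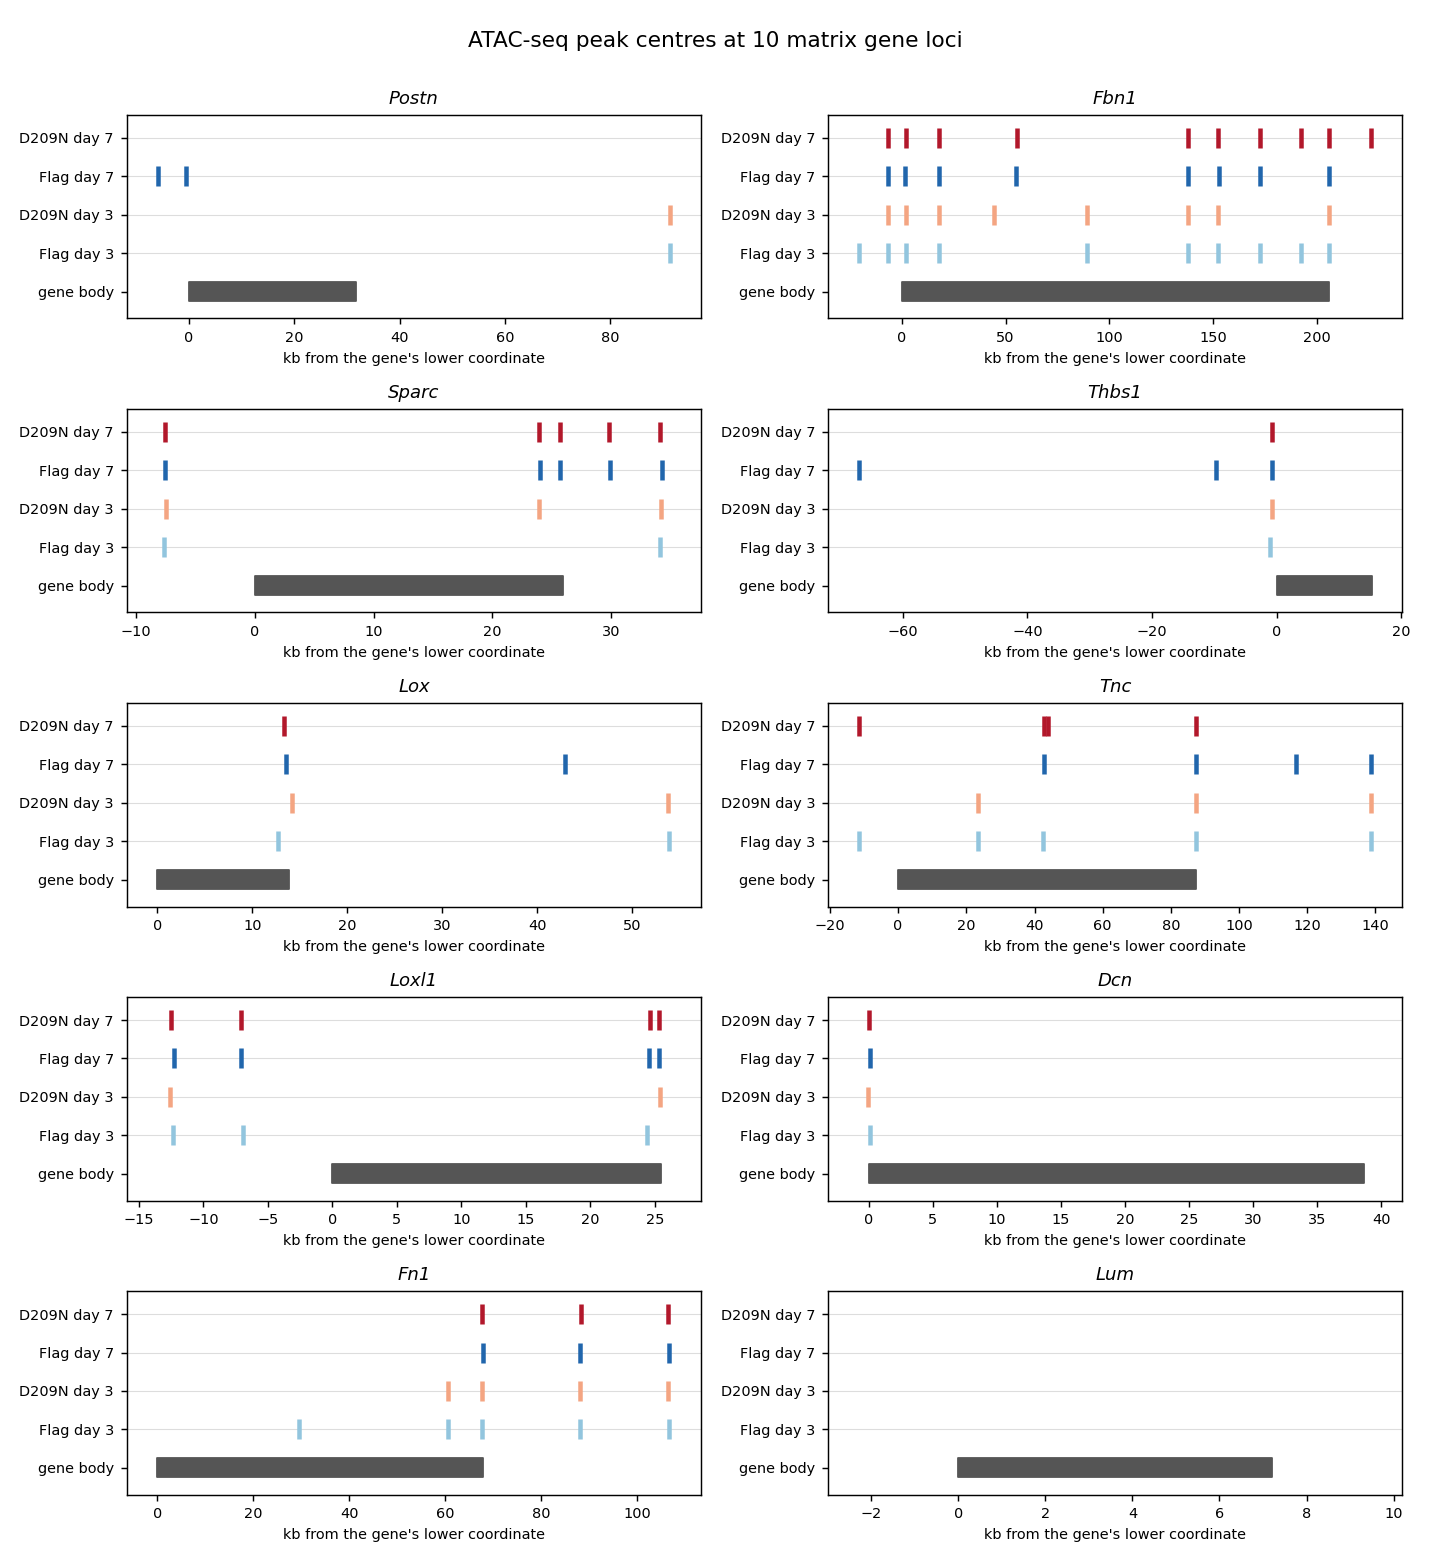
Peak centres at the 10 loci, 1 panel per gene, as distance in kb from the lower coordinate of the gene, with 1 row per list and the gene body as a grey bar; ticks mark centres and are not drawn to peak width. Sparc shows 2 centres at and above its upper end in the day 7 rows only, Postn has none in the D209N day 7 row, and Lum has none in any row.

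The loci differed in how densely they were marked. The stretch of genome whose peaks could be counted for a gene ranged from 48.0 kb for Lum to 248 kb for Fbn1. Fbn1 had 13 merged regions in 248 kb and Tnc 7 in 236 kb, but Dcn had 1 in 162 kb and Postn 3 in 152 kb, while Sparc had 5 in 67.5 kb and Loxl1 4 in 61.3 kb. Of the member peaks, 19 of 29 in D209N day 7, 17 of 32 in Flag day 7, 14 of 25 in D209N day 3 and 17 of 30 in Flag day 3 touched a gene body. The longest gene, Fbn1, gave 8, 7, 7 and 8 of them in the same order. The share over all peaks of a list is not given here, so these counts describe the members alone. The median width of the member peaks was 401 bp in D209N day 7, 429 bp in Flag day 7, 393 bp in D209N day 3 and 352.5 bp in Flag day 3. That is narrower than the median of each whole list, which was 489, 464, 464 and 472 bp in the same order.

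**Figure D2:**
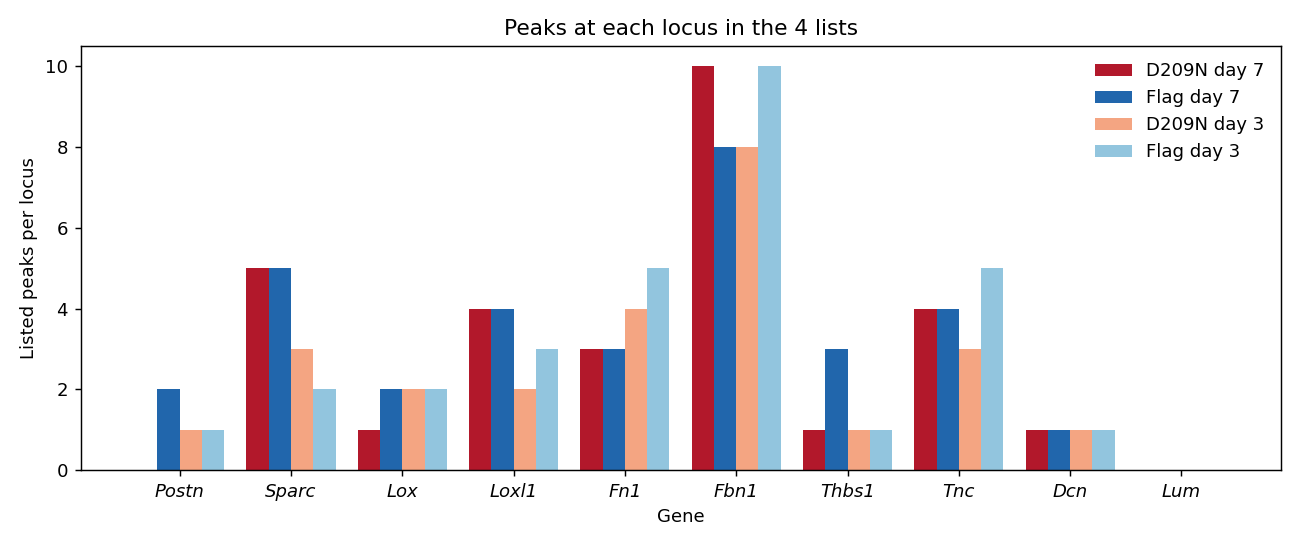
Number of listed peaks per locus (y axis) for each gene (x axis), with bars for D209N day 7, Flag day 7, D209N day 3 and Flag day 3. Fbn1 has 10, 8, 8 and 10 peaks in that order, Dcn has 1 in every list, and Lum has 0.

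The day 3 comparison sets D209N against Flag early in reprogramming. Members with fewer peaks in D209N numbered 4 of 10 (Loxl1, Fn1, Fbn1 and Tnc), where 25.1% of all coding genes had fewer. Sparc had more, where 5.91% of coding genes had more, and the other 5 were equal, against 69% of all. The median difference was 0 peaks over the members and 0 over all coding genes. In total D209N held 25 member peaks against 30 in Flag, or 83.3%, and the whole D209N list was 80.2% as long as the Flag list. Merged regions gave the same picture: of 34 regions in either day 3 list, 9 (26.5%) were in Flag only, against 25.8% of all regions, 4 (11.8%) were in D209N only, against 7.3%, and 21 (61.8%) were in both, against 66.9%. The shortfall of member peaks was close to that of the whole list. The direction depended on which peaks entered. With peaks at least as wide as the list median, D209N held 11 member peaks and Flag 10. That median was 464 bp in D209N and 472 bp in Flag, and D209N peaks of 468 bp at Sparc and Fbn1 lay between these cuts. Another setting cut the lists to their widest peaks and equal length. D209N day 3, the shortest list, stayed whole there, so only Flag could lose peaks and a lower Flag count was built in. D209N then held 25 member peaks and Flag 21. Under this cut 4 members (Postn, Sparc, Loxl1 and Tnc) had more in D209N and 1 (Fbn1) had fewer. The D209N minus Flag difference was then 2 at Loxl1, against -1 with all peaks, 1 at Tnc, against -2, 1 at Postn, against 0, and 0 at Fn1, against -1. At Fbn1 it was -1, against -2, and at Sparc 1 in each case. The Loxl1 difference was 0 without intervals under 100 bp.

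Peaks that reached to within 1 kb of a gene end are called gene-end peaks here, whichever gene they were counted for. Loxl1 had one in D209N day 3 and not in Flag day 3, which 0.809% of coding genes did. The 20 bp interval of Flag day 3 inside Loxl1 lay just outside that window, and with a window of 2 kb both lists had a Loxl1 peak. No member had one in Flag alone, against 5.03% of coding genes. With a window of 0.5 kb, Lox and Thbs1 had a gene-end peak in D209N day 3 and not in Flag day 3. With peaks at least as wide as the list median, Loxl1 had none in either day 3 list, and Tnc had one in Flag alone. Among 21 regions in both day 3 lists, 8 were wider in D209N and 13 narrower, where 31.1% of all shared regions were wider. The median width ratio was 0.958, against 0.902 over all shared regions. At least 1.5 times wider in D209N were 3 (a region of Loxl1, of Thbs1 and of Tnc), against 4.07% of all shared regions. The opposite held for 2, both in Fbn1, against 16.8%.

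Of the 45 other matrix genes listed for comparison (elastic fibre, lysyl oxidase, matricellular and proteoglycan genes), 5 had more and 16 fewer peaks in D209N at day 3, and of 14 fibroblast collagen genes 4 had more and 6 fewer. Gene-end peaks were listed for Efemp2, Thbs4, Tnxb, Tnn, Col3a1 and Col6a1 in D209N alone, and for Fbn2, Ltbp2, Loxl2, Comp, Ccn1, Vcan, Col5a1 and Col8a1 in Flag alone. The same was so in Flag alone for the markers Twist2, Sall4, Utf1 and Cdh1. By the rule of up to 3 genes in each direction with ties broken by alphabet, those named among the rest were Col16a1 (6 peaks in D209N, 3 in Flag), Prelp (3 and 1), Prrx1 (5 and 3), Fbln2 (2 and 5), Ltbp4 (2 and 5) and Col12a1 (4 and 6).

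The day 7 comparison sets the same arms against each other later. Fbn1 had more peaks in D209N, where 11.5% of coding genes had more. Postn, Lox and Thbs1 had fewer, where 18.4% had fewer, and the other 6 members were equal, against 70.1%. In total D209N held 29 member peaks against 32 in Flag, or 90.6%, and the whole list was 95.3% as long. None of these 4 differences kept its sign when narrow peaks were left out. With peaks at least as wide as the list median, and with lists of equal length, the difference was 0 at Postn, Lox and Thbs1. The Fbn1 difference of 2 peaks became -3 with the wide peaks and -2 with equal lengths. The members with fewer peaks in D209N were then Sparc, Fbn1 and Tnc with the wide peaks, and Loxl1, Fbn1 and Dcn with equal lengths. The median difference was again 0 for members and for all coding genes. Postn had its gene-end peak in Flag only, which 2.02% of coding genes did. The reverse was seen at 0 members and at 0.973% of coding genes. With wide peaks or equal lengths Postn had no gene-end peak in either day 7 list. With wide peaks Loxl1 had one in D209N only, and with equal lengths Sparc and Dcn had one in Flag only.

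Peaks touching a gene body did not separate the arms in the same way. By those alone 0 members had fewer in D209N at day 7, so the deficits of Postn, Lox and Thbs1 lay outside the genes. Of 36 regions in either day 7 list, 7 (19.4%) were in Flag only, against 15.6% of all, 4 (11.1%) in D209N only, against 11.7%, and 25 (69.4%) in both, against 72.7%. The regions in Flag only were 198 to 274 bp wide and those in D209N only 187 to 399 bp. Shared regions had a median width ratio of 0.929, against 1 over all. Those at least 1.5 times wider in D209N were the Lox gene-end region (1043 against 618 bp) and the region 12.5 kb below Loxl1 (851 against 493 bp), a class that holds 8.32% of all shared regions. The opposite held for 4, 1 in Sparc, 1 in Loxl1 and 2 in Fbn1, against 7.23% of all.

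Among the 45 other matrix genes, 8 had more and 12 fewer peaks in D209N at day 7, and among collagen genes 4 had more and 4 fewer. Gene-end peaks were listed for Col3a1, Col5a3, Col6a1, Fmod and the pluripotency marker Zfp42 in D209N alone, and for Ltbp3, Mfap5, Loxl2 and Vtn in Flag alone. Vtn had 0 peaks counted for it in either day 7 list, so the peak at its end was counted for another gene. The same rule named Thbs4 (4 in D209N, 2 in Flag), Pdgfrb (3 and 1), Cdh1 (6 and 2), Col1a2 (5 and 8), Krt18 (2 and 5) and Col14a1 (1 and 3).

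**Figure D3:**
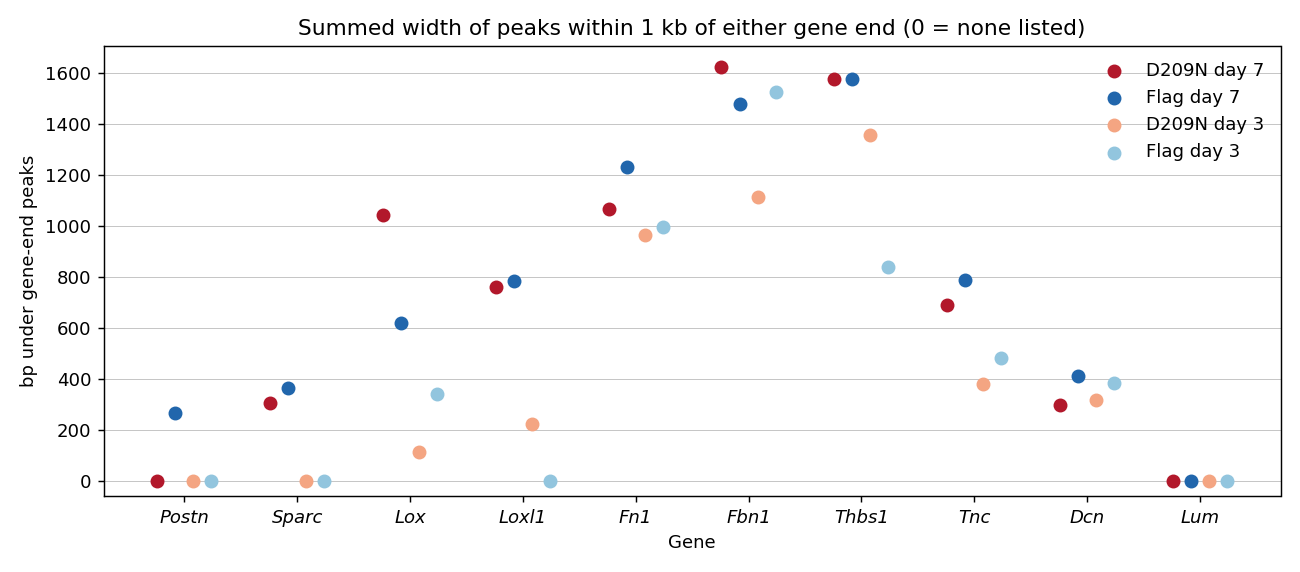
Summed width in bp of the peaks that overlap the 1 kb around either gene end (y axis) for each gene (x axis), with 1 point per list and 0 where none was listed. Sparc and Loxl1 stand higher at day 7 than at day 3 in each arm, Fbn1 stands highest with 1623 bp in D209N day 7, and Lum is at 0 throughout.

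The comparison of day 7 with day 3 follows each arm in time. The 4 comparisons share lists with each other, so their counts are not independent. In D209N cells, Sparc, Loxl1, Fbn1 and Tnc had more peaks at day 7, which makes 4 of 10 where 34.6% of coding genes had more. Postn, Lox and Fn1 had fewer, 3 of 10, where 7.1% of coding genes had fewer. Genes without a peak in D209N day 3, 34.1% of all, could not have fewer. The median in that list was 1 peak per coding gene and 2 per member. Thbs1, Dcn and Lum were equal, against 58.3%. With peaks at least as wide as the list median the differences were -1 at Sparc and Fbn1 and 1 at Lox, each of the opposite sign. The cuts were unequal, at 489 bp for day 7 and 464 bp for day 3. Sparc peaks of 475 and 468 bp and a Fbn1 peak of 468 bp passed at day 3 but lay below the day 7 cut. A Fbn1 peak of 477 bp was left out at day 7. The Lox peaks, 1043 bp at day 7 and 112 and 393 bp at day 3, fell the same way under either cut. The members held 29 peaks at day 7 against 25 at day 3, or 116%, while the D209N list as a whole reached 139%. With lists of equal length the members held 19 peaks at day 7 against 25 at day 3, and 1 member (Sparc) had more at day 7 and 5 (Postn, Lox, Fn1, Fbn1 and Dcn) had fewer. Only the day 7 list could lose peaks in that cut, since D209N day 3 is the shortest list. Sparc was the member with a gene-end peak at day 7 only, as were 9.02% of coding genes. With a window of 2 kb Sparc had one at day 3 too. No member had one at day 3 only, and 0.32% of coding genes did. With wide peaks or equal lengths Sparc had no gene-end peak in either D209N list. With wide peaks Lox, Loxl1 and Tnc had one at day 7 only, and with equal lengths Dcn had one at day 3 only.

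Regions showed where the peaks were exchanged. Of 37 member regions in either D209N list, 12 (32.4%) were at day 7 only, against 35.9% of all, 8 (21.6%) at day 3 only, against 10.3%, and 17 (45.9%) at both, against 53.8%. The 8 lay at Postn, Fn1 and Tnc (1, 1 and 2 regions), at Lox (2) and at Fbn1 (2). Shared regions were wider at day 7 in 13 of 17, against 77.8% of all. Their median ratio was 1.16, against 1.23 over all. Those at least 1.5 times wider numbered 3, the gene-end regions of Loxl1 (529 against 223 bp) and Tnc (688 against 379 bp) and a region of Fbn1, where 27.8% of all were. None was at least 1.5 times narrower, against 4.83% of all.

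In Flag cells, Postn, Sparc, Loxl1 and Thbs1 had more peaks at day 7, 4 of 10 where 29.7% of coding genes had more. Fn1, Fbn1 and Tnc had fewer, 3 of 10, where 11.8% had fewer, and Lox, Dcn and Lum were equal, against 58.4%. At Tnc the difference was -1, and 1 with peaks at least as wide as the list median. At Loxl1 it was 1, and 0 when intervals of the same number were joined. Member peaks numbered 32 at day 7 against 30 at day 3, or 107%, and the Flag list as a whole reached 117%. Gene-end peaks were listed at day 7 only for Postn, Sparc and Loxl1, 3 of 10 where 6.23% of coding genes did so, and at day 3 only for 0 members, against 0.704%. With a window of 2 kb the Loxl1 peak was in both Flag lists. With peaks at least as wide as the list median, Postn, Sparc and Loxl1 had no gene-end peak in either Flag list. Lox then had one at day 7 only. With lists of equal length Sparc and Loxl1 kept theirs at day 7 only, and Postn had none. With all peaks, the day difference had opposite signs in the arms at 3 of 10 members, Postn, Fbn1 and Tnc. Of all coding genes, those without a peak included, 4.48% did so. None of the 3 members kept the opposite signs with wide peaks or with equal lengths. Postn lost them also within 20 kb, with gene bodies only and with the ends of any gene. The arm difference had opposite signs on the 2 days at Fbn1, where 6.85% of coding genes did, and Fbn1 lost this with wide peaks and with equal lengths.

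Of 41 member regions in either Flag list, 11 (26.8%) were at day 7 only, against 28.6% of all, 9 (22%) at day 3 only, against 16.3%, and 21 (51.2%) at both, against 55.2%. Shared regions were wider at day 7 in 14 of 21, against 66.6% of all. Their median ratio was 1.22, against 1.1 over all. At least 1.5 times wider were 8, where 17.7% of all were, among them the gene-end regions of Thbs1 (1574 against 838 bp), Tnc (787 against 481 bp) and Lox (618 against 342 bp, from peaks that did not overlap each other). Another of the 8 was the Loxl1 interval that was 20 bp wide at day 3. None was at least 1.5 times narrower, against 8.09% of all.

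The median difference between days was 0 peaks for the members in each arm, as over all coding genes. Of the 45 other matrix genes, 27 had more and 3 fewer peaks at day 7 in D209N, and 22 had more and 6 fewer in Flag. Collagen genes with more numbered 9 of 14 in each arm, and those with fewer 4 in D209N and 2 in Flag. Gene-end peaks at day 7 only were listed in D209N for Eln, Fbn2, Ltbp2, Comp, Tnr, Ccn1, Fmod, Omd, Vcan, Col5a1, Col5a3, Col8a1 and Col14a1, and at day 3 only for Tnn. The markers Twist2, Sall4, Utf1, Cdh1, Ocln and Esrp1 also had theirs at day 7 only in D209N. In Flag they were listed at day 7 only for Eln, Efemp2, Ltbp3, Mfap5, Thbs4, Tnxb, Tnr, Vtn, Omd and Col14a1 and the markers Ocln and Esrp1, and at day 3 only for Zfp42. The peak at the end of Vtn was again one counted for another gene. By the naming rule, which takes up to 3 genes in each direction and breaks ties by alphabet, the others were Col6a3 (7 at day 7, 2 at day 3), Fbln2 (7 and 2), Cdh5 (7 and 3), Col5a2 (1 and 4), Col1a2 (5 and 6) and Col3a1 (2 and 3) in D209N, and Ccn1 (8 and 4), Cdh5 (7 and 3), Col5a1 (5 and 1), Fbn2 (1 and 4), Cdh1 (2 and 4) and Col5a2 (1 and 3) in Flag.

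Merged over the 4 lists, the member loci held 45 regions of the 55274 in the series. All 4 lists held 15 of them (33.3%, against 39.4% of all regions), at Fbn1 (6), Fn1 (3), Sparc (2), Loxl1, Thbs1, Tnc and Dcn. Both day 3 lists and neither day 7 list held 5 (11.1%, against 4.69%), 1 each at Postn, Lox, Fn1, Fbn1 and Tnc. Both day 7 lists and neither day 3 list held 3 (6.67%, against 12.9%), 2 at Sparc and 1 at Fbn1. When peaks had to share at least 50% of both to form a region, this class held 8 of 52 member regions (15.4%, against 11.1% of 63860 regions), so its share was then above that of all regions and not below it. The class of both day 3 lists held 5 (9.62%, against 4.51%) under that rule. The 5 regions shared by the day 3 lists were 257 to 574 bp wide and lay 7.21 to 89.1 kb from the nearer gene end, so none was a gene-end region.

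Absence from D209N day 3 alone was seen for 5 regions (11.1%, against 8.07%), 2 at Loxl1 and 1 each at Lox, Fbn1 and Tnc. With at least 50% of both peaks shared it was seen for 1 (1.92%, against 6.84%), at Fbn1. Absence from Flag day 3 alone was seen for 2 (4.44%, against 2.27%), at Sparc and Loxl1. A single list held 12 regions, and 20 of 52 with at least 50% shared (38.5%, against 39.4%). Of the 12, 6 were in Flag day 7 (13.3%, against 10.3%) at Postn, Thbs1, Lox and Tnc. No member region was listed in D209N on both days and never in Flag, or in Flag on both days and never in D209N, which 0.384% and 1.43% of all regions were. D209N day 7 and Flag day 3 alone held 2 (4.44%, against 1.33%), at Fbn1 and Tnc, and 1 at Tnc was absent from D209N day 7 alone (2.22%, against 1.21%).

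**Figure D4:**
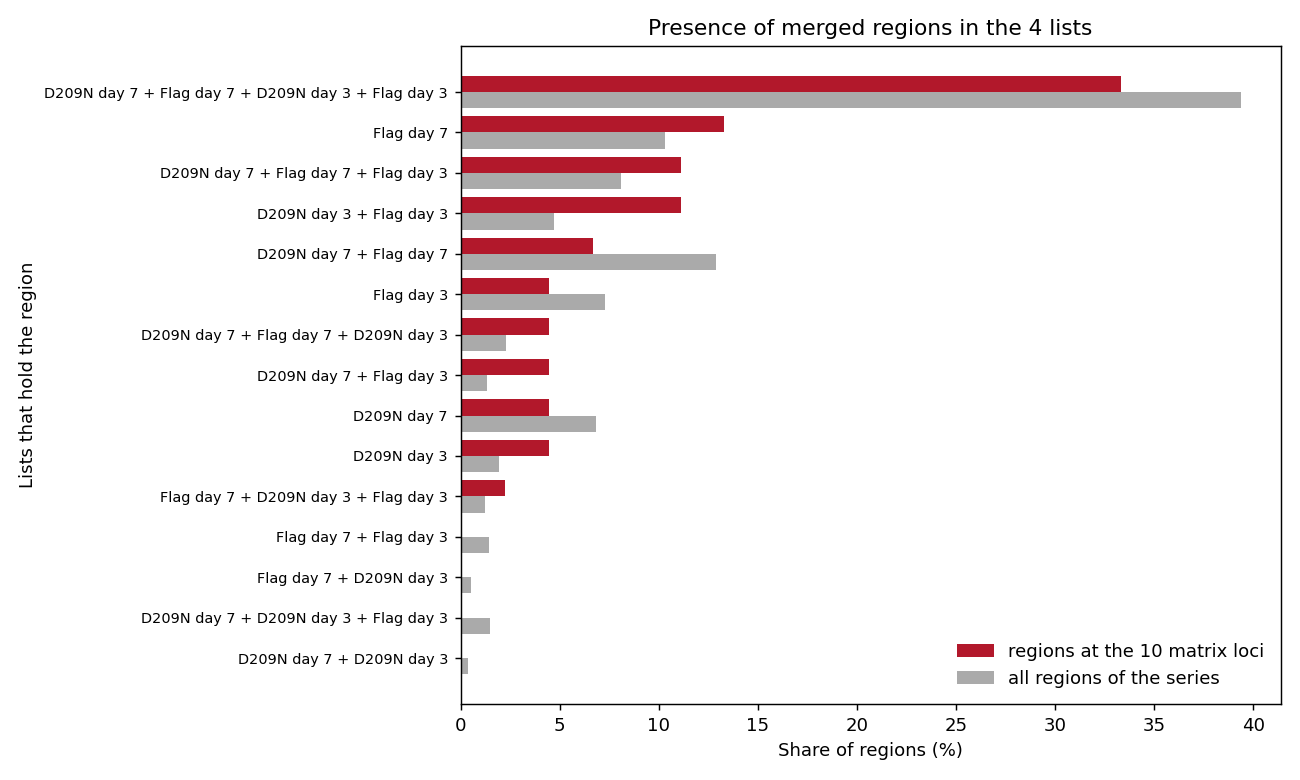
Share of merged regions in percent (x axis) for each combination of lists that held the region (y axis), with the 45 regions at the 10 loci in red and all 55274 regions in grey. The combination of both day 3 lists holds 11.1% of the member regions and 4.69% of all, and that of both day 7 lists 6.67% and 12.9%, which became 15.4% and 11.1% when peaks had to share at least 50% of both.

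The peak names in each list carry a number that ascends along every chromosome with gaps. Where a region was absent from a list, the numbers of the listed peaks on either side show whether a number is missing there. In D209N day 3, none was missing at 13 of the 20 absent member regions, among them the Lox, Loxl1 and Tnc regions that only this list lacked and the Sparc start-site region. Over all absent regions none was missing at 49.6%. At the Fbn1 region 33.4 kb downstream of the start, which only this list lacked, 1 number was missing. In Flag day 3 none was missing at 9 of 15, against 74.6% of all absent regions, and 1 number was missing around the Sparc start site. In D209N day 7 none was missing at 5 of 16, against 33.8%, and 2 numbers were missing across the Postn locus. In Flag day 7 none was missing at 3 of 13, against 42.7%. Around Lum none was missing except in Flag day 7, where 2 were. A missing number lies somewhere between the listed neighbours, which can be far apart, and what it stood for is not given.

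Marker genes were read by their gene-end peaks. Of all coding genes, 60.4% had one in D209N day 7 and 61.5% in Flag day 7. The shares at day 3 were 51.7% in D209N and 55.9% in Flag. Of 7 fibroblast markers, 4 had one in D209N day 7, 4 in Flag day 7, 3 in D209N day 3 and 4 in Flag day 3, and Thy1, Prrx1 and Pdgfra had none in any list. For 6 epithelial markers the counts were 5, 5, 2 and 3 in the same order, and for 7 pluripotency markers 3, 2, 1 and 3, with Nanog, Esrrb, Dppa4 and Dppa5a at none. Of 4 macrophage and 4 endothelial markers 1 each (Cd68 and Kdr) had one in every list, and Ptprc, Csf1r, Adgre1, Pecam1, Cdh5 and Tie1 had none. The part of these markers in the results at the matrix loci was not tested.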

How the data were processed

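ATAC-seq, in which a transposase cuts open chromatin, was read from 1 deposited peak list per group, for 8 of the 82 samples of the series. Other assays were not analysed here. In each list the authors deposited the chromosome, start, end and name of every interval, and no score, count or signal, so no p-value or depth goes with a peak. CASAVA and Bowtie2 2.3.2 are named, per the submitters' processing notes, with the builds mm10 and GRCm38.p5. How peaks were called, at what threshold, whether cut positions were shifted and whether the second replicate entered a list is not known from the labels. All peak names carry rep1, and between 146 and 180 intervals per list repeat a number.

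Lists were matched to groups by the arm and day in their peak names, and mitochondrial intervals were left out. Gene positions came from RefSeq GRCm38.p6. Peaks reached a gene end at 60.4% of coding genes in D209N day 7, and at 14.5% after all genes were moved by 20 kb. Peaks sharing at least 1 bp were merged into regions. With 1 list per group nothing was tested, and shares over all coding genes or regions stand beside each count. Shares of coding genes include genes without a peak, which cannot have fewer. The median was 1 peak per coding gene in each list, and 2 per member, or 3 in Flag day 7. The assignment was tested on simulated data for the Flag day 3 list over 21883 genes. An extra peak was placed inside 200 genes, and 200 of 200 were found. Such a peak overlaps its gene and is counted for it by definition, so the nearest-end rule was not tried by it. A direct search was also made for 300 peaks of that list, and 0 disagreed. Python 3.11.15, numpy 2.4.6, pandas 2.3.3 and bedtools 2.31.1 were used.

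The members and lists were chosen with earlier results of these data known. All 10 members are named. Other genes of the lists are named where their gene-end peak was in a single list of a comparison, or where they were among the first 3 by remaining difference in each direction, ties broken by alphabet, so genes with an equal difference can go unnamed. Distances run from the start site for members in the RefSeq promoter table, and from a gene end for the others.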

Additional observations from a re-analysis of the deposited data

Results flagged for a closer look

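Fbn1 moved in opposite directions in the arms, with 2 peaks more at day 7 than at day 3 in D209N (difference 2) and 2 fewer in Flag (difference -2). Equally, D209N minus Flag was 2 peaks at day 7 and -2 at day 3. Postn had a difference between day 7 and day 3 of -1 in D209N and 1 in Flag. Tnc had a difference of 1 in D209N and -1 in Flag. With all peaks, opposite day differences in the arms were found at 3 of 10 members, and at 4.48% of all coding genes, those without a peak included. They depended on which peaks entered. With peaks at least as wide as the list median the differences in D209N and Flag were -1 and 0 at Fbn1, 0 and 0 at Postn, and 0 and 1 at Tnc, and Sparc was then the 1 member with opposite signs (-1 in D209N, 2 in Flag). The D209N cut was 489 bp at day 7 and 464 bp at day 3, and Sparc peaks of 475 and 468 bp entered at day 3 under the lower cut. With lists of equal length the differences in D209N and Flag were -3 and -2 at Fbn1, -1 and 0 at Postn, and 0 and 0 at Tnc, and 0 members had opposite signs. Postn in D209N was 0 within 20 kb, with gene bodies only and with the ends of any gene.

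Opposite arm differences on the days were found at 1 of 10 members, and at 6.85% of all coding genes. At Fbn1 the day 7 difference became -3 with wide peaks and -2 with equal lengths while the day 3 difference was -2 and -1, so the opposite signs were lost. With 1 list per group none of these differences was tested.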

How the results depend on the processing

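No paired analysis was possible because each group has 1 list, whose peak names carry rep1, and no result comes from a test, and for the same reason no replicate could be left out. With peaks that overlap the gene body only, member peaks numbered 19 in D209N day 7, 17 in Flag day 7, 14 in D209N day 3 and 17 in Flag day 3. With peaks at least as wide as the list median they numbered 11, 15, 11 and 10 in the same order, and with lists cut to equal length by width 19, 23, 25 and 21. The list medians were 489, 464, 464 and 472 bp in that order, so the sides of each comparison met unequal cuts. Fewer peaks enter by construction under these settings, except in D209N day 3, the shortest list, with equal lengths. The falls were unequal, so that with equal lengths D209N day 3 held more member peaks than Flag day 3 and than D209N day 7.

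At day 3, members with more peaks in D209N than in Flag numbered 2 with wide peaks and 4 with equal lengths, and members with fewer numbered 1 under each. At day 7, members with more numbered 2 within 20 kb, with gene bodies and with the ends of any gene, and members with fewer numbered 0 with gene bodies and 1 with any gene. Between days in D209N, members with more at day 7 numbered 2 with wide peaks and 1 with equal lengths, and members with fewer numbered 1 within 20 kb, with gene bodies and with any gene, and 5 with equal lengths. Between days in Flag, members with more numbered 2 with equal lengths and members with fewer 0 with wide peaks. The cause was not tested.

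Of the differences at single members under the alternatives, 217 kept their sign or stayed at 0, 52 reached or left 0 and 11 turned round. With wide peaks the turned differences were -1 for Sparc, 1 for Lox and -1 for Fbn1 between days in D209N, 1 for Tnc between days in Flag, 1 for Loxl1 between arms at day 3 and -3 for Fbn1 between arms at day 7. With equal lengths they were 2 for Loxl1 and 1 for Tnc between arms at day 3, -2 for Fbn1 between arms at day 7 and -3 for Fbn1 between days in D209N. With gene bodies Lox between days in D209N was 1.

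With all peaks, members with a gene-end peak numbered 8 in D209N day 7, 9 in Flag day 7, 7 in D209N day 3 and 6 in Flag day 3. The shares of all coding genes were 60.4%, 61.5%, 51.7% and 55.9% in the same order. With wide peaks such members numbered 5 in Flag day 7 and 3 in D209N day 3. D209N day 7 then lost those of Sparc and Dcn, and Flag day 3 those of Lox and Dcn. When regions had to share at least 50% of both peaks, 8 were in both day 7 lists only, 1 was absent from D209N day 3 only and 20 were in 1 list. Joining intervals of one number and leaving out intervals under 100 bp, both chosen after seeing the data, turned none of the differences, though each brought 1 difference at Loxl1 to 0.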
